A study of Homo sapiens with 2 samples.

Results

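The 41 genes described here make the machinery that copies DNA in S phase, from the proteins that mark origins to those that supply nucleotides and watch over the fork. The list is one of gene names and uses no measured value, though it was chosen with earlier results of these data known. All 41 symbols were found once each among the 36601 genes of the single-cell tables. Summed over the list, RNA of these genes made up 2090.3 of every 1000000 counted molecules (CPM) in RWPE1, against 2458 in RWPE-ERG-mAKT. The higher sum came from part of the list. SLBP, CLSPN, CDC45 and PCNA stood 2.43, 2.30, 2.16 and 1.96 times as high in RWPE-ERG-mAKT, while POLE2, POLE, POLA1, E2F1 and LIG1 stood at 0.537, 0.647, 0.662, 0.661 and 0.663 times their RWPE1 level. Cells rich in RNA of the list were also more frequent, with 5.12% of RWPE1 cells and 15.3% of RWPE-ERG-mAKT cells holding 20 or more of its molecules at equal depth.

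RWPE1 is a line of prostate epithelium immortalized with a human papillomavirus. The study compared it with the same line made to express ERG, a transcription factor of the ETS family, together with a myristoylated AKT (mAKT), a kinase held active by its anchor in the membrane. The submitters' labels give the RWPE1 library as a vector only control, whereas the paper's text calls those cells parental, so it is not certain that they went through transduction and drug selection. With 1 library per condition no test between conditions was possible, and every interval below is a 95% interval of counting error only. The study's methods give 10000 cells as the input. ERG was carried by a retroviral vector in which the promoter of HNRNPA2B1 drives it, and mAKT by a pBabe-Puro vector. Effects of ERG, of mAKT, of their vectors and of the library cannot be told apart in this comparison.

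The assay, 10x Genomics Chromium, reads the 3' ends of polyadenylated transcripts, and each molecule is counted once by its unique molecular identifier (UMI). Cells with over 2500 detected genes and under 7.5% of UMIs from mitochondrially encoded (MT-) genes were used, which kept 9967 of 12504 RWPE1 barcodes and 14140 of 17355 RWPE-ERG-mAKT barcodes. Both libraries thus hold more barcodes than the stated input of 10000 cells, and the reason was not tested. The kept cells held 192789925 and 225121037 UMIs, with medians of 16972 and 13601 UMIs, 4828 and 4105 genes and 5.44% and 2.73% MT- UMIs per cell, so depth and MT- share differed between the libraries. Levels are CPM of the summed UMIs of the kept cells, and shares and correlations were taken after each cell was thinned to 5000 UMIs, which left out 0 RWPE1 and 6 RWPE-ERG-mAKT cells. The labels were checked on the introduced gene, and ERG had 1.44 CPM in RWPE1, against 20.8 CPM in RWPE-ERG-mAKT. AKT1 stood at 22.01 and 19.1 CPM, which does not check mAKT. All 10 epithelial markers were present, with sums of 8862 and 12880.4 CPM. The higher sum came from KRT17 (2193 and 7036 CPM) and KRT14 (1600 and 2191 CPM). Every other epithelial marker stood lower or about level in RWPE-ERG-mAKT, such as KRT18 at 1198 and 542 CPM. Endothelial, immune and choroid plexus markers summed to 0.363, 1.09 and 0.213 CPM in RWPE1 and to 0.431, 0.142 and 0.0844 CPM in RWPE-ERG-mAKT. The 5 fibroblast markers summed to 1.86 and 26.0 CPM, of which DCN made 0.228 and 23.1 CPM, with LUM at 0 in RWPE1 and COL3A1 at 0 in RWPE-ERG-mAKT. Whether RNA of these other markers comes from cells of those types, and its part in the results, was not tested. A set of 55 barcode sequences occurred in both libraries, 49 and 42 of them among kept cells.

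Before S phase, the origin recognition complex, CDC6 and CDT1 load the ring-shaped MCM helicase onto origins, a step called licensing. At the start of S phase CDC45 and the GINS complex turn that ring into a working helicase. Polymerase alpha with primase lays down primers, polymerases epsilon and delta extend them on the leading and lagging strands, and the clamp PCNA, set by the RFC clamp loader, holds the polymerases to DNA. Many of these genes are transcribed by E2F factors, which the retinoblastoma protein holds back until a cell commits to division. Their RNA is commonly read as a mark of cells in late G1 and S phase. Whether the retinoblastoma protein acts in this way in a line immortalized with a papillomavirus was not measured, nor was the cell cycle phase of any cell.

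What these genes share in sequence was looked for in their promoters, taken from RefSeq on GRCh38.p14 as the 250 bases before and 50 bases after each start. The table held 35 of the 41 genes, and MCM4, MCM5, GINS4, POLD3, RPA2 and CCNE2 were missing. An E2F-type word, which here is TTTCCCGC, TTTGGCGC, TTTCGCGC or TTTGCCGC on either strand, with overlapping matches on opposite strands each counted, lay in 20 of the 35 promoters (57.1%), against 3.31% of all 35116 promoters in the table. It lay in 25.5% of the promoters of 55 other replication genes and in 8.57% of those of 35 mitosis genes, the lists of which are described below. CCAAT, on either strand, lay in 62.9% of the promoters of the 35 genes, 77.1% of those of mitosis genes and 34.6% of all promoters. TTTGAA, a core of the element of late cell cycle genes, lay in 2.86%, 74.3% and 15.2% of them on either strand. A match is a description of letters and not a bound site. The 5 promoters printed here belong to the 3 genes most strongly coexpressed with the list that hold an E2F-type word (CLSPN, MCM3 and PCNA), and to the genes with the largest ratio upward (SLBP) and downward (POLE2). They are written 5' to 3' on the strand of the gene, all of which is the minus strand, with E2F-type words in capitals.
CLSPN, chr1:35769929-35770228: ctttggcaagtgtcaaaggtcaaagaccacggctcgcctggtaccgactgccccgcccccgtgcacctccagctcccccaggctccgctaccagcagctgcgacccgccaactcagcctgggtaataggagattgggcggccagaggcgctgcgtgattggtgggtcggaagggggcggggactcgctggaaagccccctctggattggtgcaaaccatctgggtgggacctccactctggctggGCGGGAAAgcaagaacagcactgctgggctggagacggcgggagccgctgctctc
MCM3, chr6:52284693-52284992: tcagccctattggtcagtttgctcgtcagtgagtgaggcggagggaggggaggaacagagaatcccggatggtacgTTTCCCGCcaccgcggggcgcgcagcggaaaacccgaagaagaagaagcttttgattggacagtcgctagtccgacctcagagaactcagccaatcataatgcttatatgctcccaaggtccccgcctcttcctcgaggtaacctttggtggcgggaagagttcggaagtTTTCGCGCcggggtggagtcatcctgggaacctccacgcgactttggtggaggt
PCNA, chr20:5126573-5126872: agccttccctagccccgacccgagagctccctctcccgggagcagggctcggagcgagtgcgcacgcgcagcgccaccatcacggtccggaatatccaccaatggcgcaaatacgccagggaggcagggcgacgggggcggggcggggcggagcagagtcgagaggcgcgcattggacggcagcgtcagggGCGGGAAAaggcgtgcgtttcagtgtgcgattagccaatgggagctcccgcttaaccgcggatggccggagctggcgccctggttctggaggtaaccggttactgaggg
SLBP, chr4:1712270-1712569: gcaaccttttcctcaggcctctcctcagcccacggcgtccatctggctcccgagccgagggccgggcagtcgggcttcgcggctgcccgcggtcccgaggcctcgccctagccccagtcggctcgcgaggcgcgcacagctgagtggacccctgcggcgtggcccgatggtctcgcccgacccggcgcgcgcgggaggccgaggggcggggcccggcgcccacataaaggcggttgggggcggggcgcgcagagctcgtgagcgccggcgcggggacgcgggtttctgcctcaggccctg
POLE2, chr14:49688165-49688464: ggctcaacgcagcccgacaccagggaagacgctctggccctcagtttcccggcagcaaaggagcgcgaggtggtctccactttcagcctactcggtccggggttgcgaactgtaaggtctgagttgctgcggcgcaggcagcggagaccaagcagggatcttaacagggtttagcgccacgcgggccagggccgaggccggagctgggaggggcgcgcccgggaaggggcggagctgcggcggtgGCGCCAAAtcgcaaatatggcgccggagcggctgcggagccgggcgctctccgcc
Counted from the first transcribed base, the word began at -5 in CLSPN and POLE2 and at -59 in PCNA, each on the opposite strand, and at -174 and -4 in MCM3. SLBP, the gene with the largest ratio upward, held none of these words in this window. The 20 genes with a word had a median log2 ratio between the libraries of -0.07 and the 15 without one a median of 0.33, so the words did not gather in the genes that stood higher in RWPE-ERG-mAKT.

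The levels were then compared gene by gene. Of the 41 genes, 24 (58.5%) stood higher and 17 lower in RWPE-ERG-mAKT, where 42.7% of all measured genes stood higher. The counting interval of the log2 ratio lay above 0 for 23, below 0 for 14 and across 0 for 4. Such intervals were not counted over all genes. The median log2 ratio of the list was 0.15. Over all 17995 genes with at least 100 UMIs it was -0.16, and 31 of the 41 genes lay above that. More than 1.5-fold higher were 8 genes (19.51%), namely SLBP, CLSPN, CDC45, PCNA, GINS4, FEN1, RFC2 and ORC6, where 20.3% of all measured genes were. More than 1.5-fold lower were 5 genes (12.2%), POLE2, POLE, E2F1, POLA1 and LIG1, where 32.1% of all measured genes were. The share of the list that stood higher was thus near the background, and the share that stood lower was below it. Among the 8957 genes within the range of RWPE1 levels of the list, 15.7% were past 1.5-fold upward and 28.5% downward. Past 2-fold were 3 genes upward (SLBP, CLSPN and CDC45), or 7.32%, against 11.1% of all genes, and 0 downward, against 18.8%. Among the genes within the range of RWPE1 levels of the list, 6.06% were past 2-fold upward and 14.2% downward. Closest inside the 1.5-fold limit were ORC6, LIG1, POLA1 and E2F1, and closest outside it CCNE2 (1.42-fold) and CDC6 (1.38-fold). Scaling by the median of ratios raised every log2 ratio by 0.16, so that 10 genes were past 1.5-fold upward and 1, POLE2, downward (90.9% of the calls upward, against 61.5% above), and MCM3, CDT1, ORC1, GINS1, GINS3, POLD1 and RFC5 came to lie above 0. With the mean of each cell's own CPM, 8 were past it upward and 2 downward (80.0% upward).

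**Figure D1:**
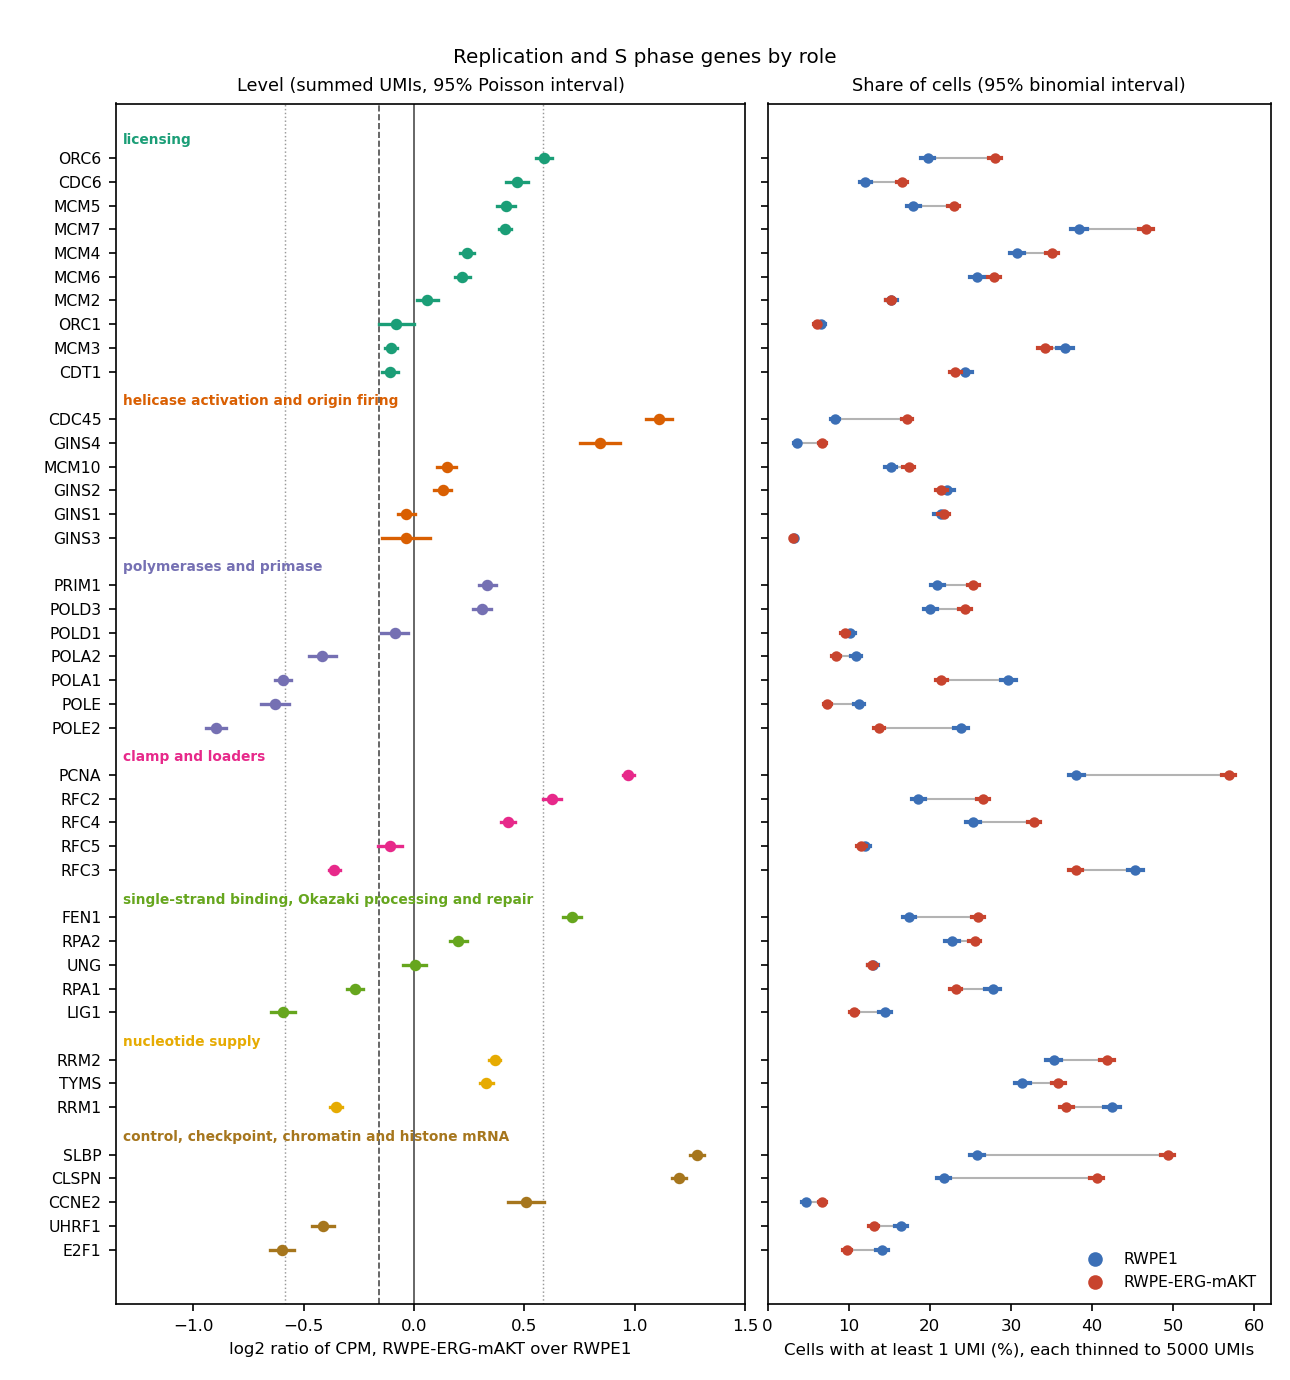
The left panel plots, for each of the 41 genes grouped by role, the log2 ratio of CPM between RWPE-ERG-mAKT and RWPE1 with its 95% Poisson interval, with the median of all measured genes as a dashed line and 1.5-fold as dotted lines. The right panel plots the share of cells with at least 1 UMI at 5000 UMIs per cell with its 95% binomial interval, and SLBP, PCNA and CLSPN show the widest gaps, from 25.8% to 49.3%, from 38.1% to 56.8% and from 21.7% to 40.6%.

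Among the licensing genes, 7 of 10 stood higher in RWPE-ERG-mAKT and the median log2 ratio was 0.23. ORC6, the smallest subunit of the origin recognition complex, had 47.2 CPM in RWPE1 against 71.00 CPM in RWPE-ERG-mAKT (log2 ratio 0.59, interval 0.55 to 0.63). Its partner ORC1, the largest subunit, stood at 12.6 and 11.96 CPM, and the interval of its ratio (-0.16 to 0.00) reached 0. Of the subunits outside the list, ORC2, ORC3, ORC4 and ORC5 had log2 ratios of -0.76, -0.39, -0.01 and -0.25. The loaders CDC6 and CDT1 also parted, with CDC6 at 27.04 and 37.4 CPM (log2 ratio 0.47). CDT1 stood at 59.04 and 54.8 CPM (log2 ratio -0.11). The 6 subunits of the MCM ring, which act in equal numbers in the helicase, spread over a narrow range. MCM5 had the highest ratio of the ring (0.42), with 40.3 and 53.7 CPM. MCM7 followed with 99.7 and 133 CPM (log2 ratio 0.41). MCM4 and MCM6 had log2 ratios of 0.24 and 0.22, while MCM2 at 0.06 and MCM3 at -0.10 lay close to 0. MCM3 was the only subunit below 0, at 95.4 and 88.8 CPM, and its share of positive cells at equal depth was also lower (36.6% and 34.1%). MCM7 overlaps AP4M1 on the opposite strand, and MCM2 overlaps TPRA1 in the same way.

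Helicase activation was led by CDC45, which joins the MCM ring and GINS in the working helicase. It had 17.6 CPM (3392 UMIs) in RWPE1 against 38.01 CPM (8556 UMIs) in RWPE-ERG-mAKT (log2 ratio 1.11, interval 1.05 to 1.17), and was found in 8.30% and 17.2% of cells at equal depth. The 4 GINS subunits, which form 1 complex, differed among themselves. GINS4 stood at 7.70 and 13.8 CPM, a log2 ratio of 0.84 (0.75 to 0.93). GINS2 had a log2 ratio of 0.13, and GINS1 and GINS3, at -0.04 and -0.04, had intervals across 0. The intervals of GINS4 and of the other 3 subunits did not overlap. GINS3 was the lowest gene of the list in both libraries (6.78 and 6.61 CPM). MCM10, which binds the helicase at firing origins, stood at 37.3 and 41.3 CPM (log2 ratio 0.15).

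The polymerases and primase made the one role with a median below 0, at -0.41, and 5 of its 7 genes stood lower in RWPE-ERG-mAKT. POLE2, the second subunit of polymerase epsilon, had 55.1 CPM (10632 UMIs) in RWPE1 against 29.6 CPM (6670 UMIs) in RWPE-ERG-mAKT (log2 ratio -0.90, interval -0.94 to -0.85). Its share of positive cells was 23.9% and 13.7%, the lowest ratio of shares in the list. POLE, the catalytic subunit of the same enzyme, stood at 25.2 and 16.3 CPM (log2 ratio -0.63). The catalytic subunit of polymerase alpha, POLA1, stood at 72.2 and 47.8 CPM (log2 ratio -0.60), and had the opposite sign (0.26) in the few RWPE-ERG-mAKT cells with 7.5% or more MT- UMIs. Its partner POLA2 stood at 22.9 and 17.2 CPM (log2 ratio -0.41). PRIM1, the catalytic primase subunit of the same complex, went the other way, at 47.2 and 59.5 CPM (log2 ratio 0.33), though it shares sequence on its own strand with NACA, a gene of the nascent polypeptide complex, so reads of the overlap may be assigned to either. Of polymerase delta, the accessory subunit POLD3 had a log2 ratio of 0.31 and the catalytic POLD1 one of -0.09, near 0, with POLD2 and POLD4, outside the list, at 0.64 and 0.12.

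PCNA, the sliding clamp, was the most abundant gene of the list in RWPE-ERG-mAKT. It had 98.6 CPM (19007 UMIs) in RWPE1 against 193 CPM (43493 UMIs) in RWPE-ERG-mAKT (log2 ratio 0.97, interval 0.95 to 1.00), and was found in 38.1% and 56.8% of cells at equal depth. The subunits of its loader did not follow one direction. RFC2 and RFC4 stood higher, from 41.05 to 63.3 CPM (log2 ratio 0.62) and from 61.1 to 82.02 CPM (0.43). RFC3 was the most abundant gene of the list in RWPE1, at 132 CPM, and stood at 103 CPM in RWPE-ERG-mAKT (log2 ratio -0.36), though its ratio was 0.34 (0.12 to 0.56) in cells with 7.5% or more MT- UMIs. RFC5 had a log2 ratio of -0.11. Of the genes for single-strand binding, Okazaki processing and repair, FEN1, the flap nuclease of Okazaki fragments, stood at 37.96 and 62.4 CPM (log2 ratio 0.72, 0.68 to 0.76). LIG1, the ligase that seals those fragments, stood at 33.1 and 21.9 CPM (log2 ratio -0.59, -0.65 to -0.54). These enzymes act one after the other on the lagging strand, and their RNA differed in opposite directions. FEN1 overlaps FADS2 on the same strand, and this overlap leaves its level less certain. RPA1 and RPA2, subunits of the single-strand binding protein, had log2 ratios of -0.27 and 0.20. UNG, which removes uracil from DNA, stood at 28.4 and 28.5 CPM, and its interval (-0.05 to 0.06) lay across 0.

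The nucleotide supply genes were among the most abundant in both libraries. RRM2, the regulatory subunit of ribonucleotide reductase, stood at 115 and 148 CPM (log2 ratio 0.37), with a ratio of -0.47 (-0.79 to -0.16) in cells with 7.5% or more MT- UMIs. RRM1, its catalytic partner, stood at 118 and 92.6 CPM (log2 ratio -0.35), so the subunits of this enzyme also parted. TYMS, thymidylate synthase, stood at 80.1 and 100.5 CPM (log2 ratio 0.33) and overlaps ENOSF1 on the opposite strand. The last role holds genes of control, checkpoint, chromatin and histone RNA. SLBP, which binds the stem-loop of replication-dependent histone mRNA, had 59.8 CPM (11529 UMIs) in RWPE1 against 145 CPM (32731 UMIs) in RWPE-ERG-mAKT (log2 ratio 1.28, interval 1.25 to 1.31). CLSPN, the adaptor that passes the stalled-fork signal from ATR to CHK1, stood at 52.5 CPM (10131 UMIs) and 121 CPM (27186 UMIs), a log2 ratio of 1.20 (1.17 to 1.23). CCNE2, an E-type cyclin of the G1 to S step, stood at 9.97 and 14.2 CPM (log2 ratio 0.51). In contrast to these 3, E2F1, itself a transcription factor of the family that drives such genes, stood lower, at 31.3 and 20.7 CPM (log2 ratio -0.60), though at 0.12 in cells with 200 to 2500 genes, where the interval was -0.56 to 0.87. UHRF1, which guides DNA methylation to new strands, stood lower as well, at 36.7 and 27.6 CPM (log2 ratio -0.41).

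**Figure D2:**
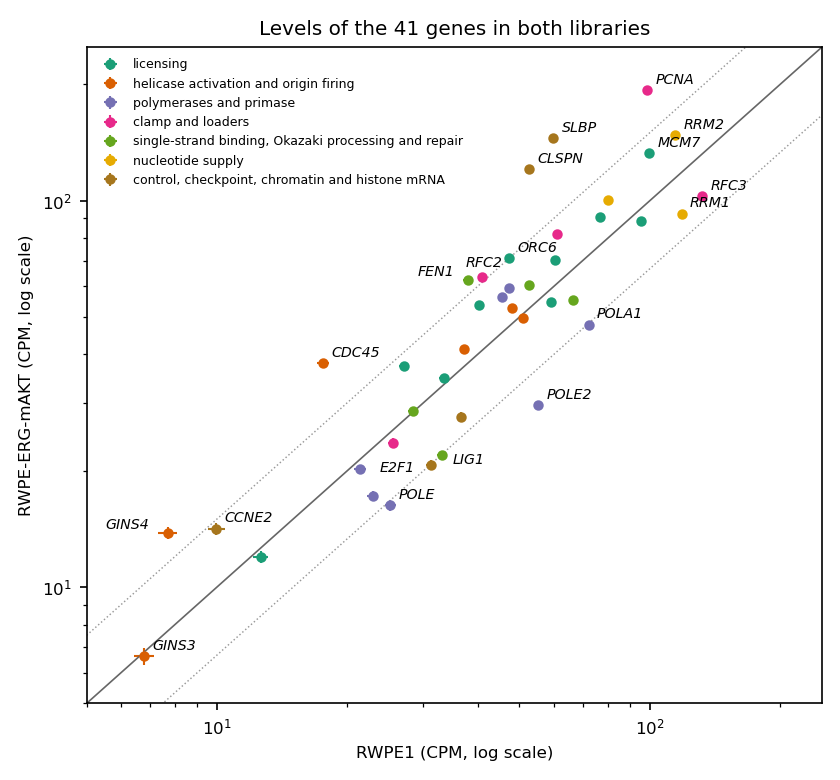
Levels of the 41 genes in RWPE1 and RWPE-ERG-mAKT are plotted as CPM on log axes with 95% Poisson intervals, colours giving the role, the solid line equality and the dotted lines 1.5-fold. PCNA, SLBP, CLSPN and CDC45 lie furthest above the solid line and POLE2 furthest below it, while RFC3 at 132 CPM is the highest gene in RWPE1 and PCNA at 193 CPM the highest in RWPE-ERG-mAKT.

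In the order of levels, counted at 3' ends and not corrected for capture, the genes ran from 6.78 to 132 CPM in RWPE1, with a median of 47.2 CPM, and from 6.61 to 193 CPM in RWPE-ERG-mAKT, with a median of 53.7 CPM. The intervals of 15 of the 40 pairs of neighbours in that order overlapped in RWPE1, and of 18 in RWPE-ERG-mAKT. The genes lie on 19 chromosomes. For the genes with the largest ratios, the levels of other genes within 1 Mb were set beside them. The 18 measured neighbours of PCNA on chromosome 20 had a median log2 ratio of 0.64, the 31 of SLBP on chromosome 4 a median of 0.33 and the 32 of CDC45 on chromosome 22 a median of 0.28. CLSPN on chromosome 1 and POLE2 on chromosome 14 had neighbours with medians of -0.25 and -0.14. Single neighbours lay on both sides of 0 for each, from -2.21 to 2.51 around PCNA, from -1.66 to 2.43 around SLBP and from -3.14 to 2.03 around CDC45, and all measured genes of chromosome 22 had a median of 0.39. Among genes that differed from partners in a complex, MCM5, GINS4 and RFC3 had neighbours with medians of 0.54, 0.50 and -1.34, on the side of the gene. The neighbours of MCM7, ORC6 and RRM2 had medians of -0.32, -0.07 and -0.36, on the other side. Copy number was not measured, and its part in these levels was not tested. Across the 41 genes, the log2 ratio correlated with the log length of the gene at r = -0.41, against -0.07 over 17643 genes with a length, given as a description only.

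The share of cells with at least 1 UMI, at 5000 UMIs per cell, broadly followed the sums. It was higher in RWPE-ERG-mAKT for 22 genes and lower for 19, and the intervals stood apart for 21 and 11 of them. Shares were not counted in this way over all genes, so these numbers have no background beside them. The median share was 20.04% in RWPE1 cells, against 22.9% in RWPE-ERG-mAKT cells, with a range of 3.27% to 45.3% and of 3.13% to 56.8%. SLBP was found in 25.8% (24.9 to 26.7) of RWPE1 and 49.3% (48.5 to 50.1) of RWPE-ERG-mAKT cells, and CLSPN in 21.7% and 40.6%. Without thinning the shares of SLBP were 62.98% and 79.8%, in cells of unequal depth, and those of POLE2 were 59.5% and 34.8%. Free RNA can give UMIs in cells that do not express a gene, so barcodes that should lack S phase RNA were sought. In RWPE1, 53 barcodes with at least 2 UMIs of microglia or choroid plexus markers held 1706 CPM of the list (1522 to 1906), and 5 of them were among the kept cells. The 47 of them with 2500 genes or fewer, at a median of 586 UMIs, held 743 CPM (471 to 1115). Other RWPE1 barcodes with 200 to 2500 genes held 1709 CPM and the kept cells 2090.3 CPM. After thinning to 500 UMIs, 11 of these 47 barcodes (23.4%) held a UMI of the list, against 62.7% of the kept cells. RWPE-ERG-mAKT had no such barcode, so this level was not measured there. The background thus depends on which of these barcodes are taken, and that of single genes was not measured.

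The list was next followed in single cells. At 5000 UMIs a cell held a mean of 10.4 UMIs of the list in RWPE1 (SD 4.89 over cells) and 12.4 in RWPE-ERG-mAKT (SD 6.92), with medians of 10 and 11. The lower end was alike, with a 5th percentile of 4 in both libraries, and the upper end was not, with a 95th percentile of 20 and 26 and a maximum of 39 and 63. Cells with 20 or more UMIs of the list numbered 510 of 9967 in RWPE1, or 5.12% (4.69 to 5.57), and 2160 of 14134 in RWPE-ERG-mAKT, or 15.3% (14.7 to 15.9). Cells with 30 or more numbered 11 (0.110%) and 298 (2.11%). Ratios of variance to mean of 2.29 and 3.86 show the same wider spread in RWPE-ERG-mAKT. The number of different genes of the list found in a cell had medians of 8 and 9, and 36.6% and 45.8% of cells held 10 or more. The sum correlated with the depth of the cell before thinning at r = 0.01 and -0.03. Only 5 and 15 cells held none of the 41 genes. These cells come from 1 culture each and are not replicates.

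**Figure D3:**
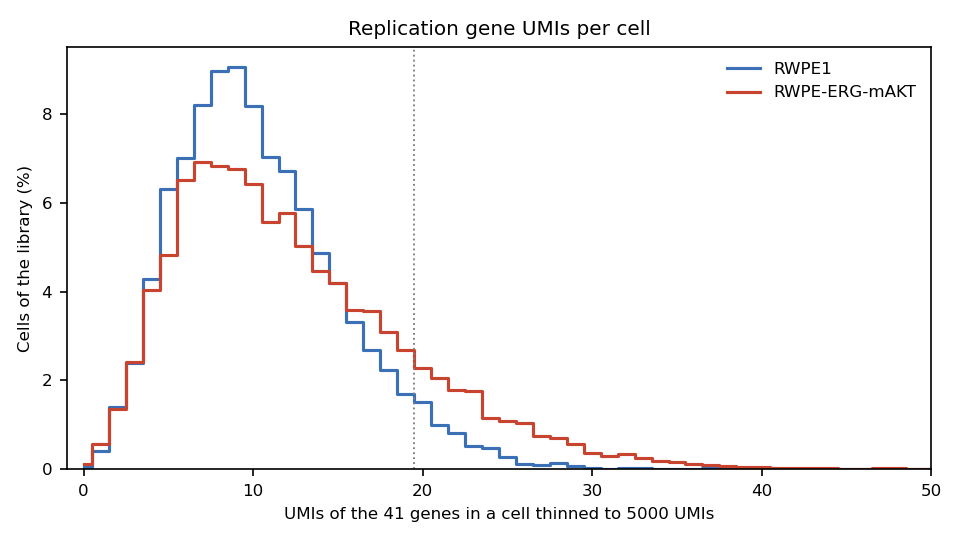
The percentage of cells of each library is plotted against the UMIs of the 41 genes in a cell thinned to 5000 UMIs, with 20 UMIs marked by a dotted line. The 2 curves run together at low values, and to the right of the dotted line lie 5.12% of RWPE1 and 15.3% of RWPE-ERG-mAKT cells.

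To compare a gene in cells of more similar total, cells were grouped by the UMIs of the other 40 genes. For SLBP the log2 ratio was 1.01, 1.15 and 1.40 in cells with 0 to 7, 8 to 15 and 16 or more UMIs of the others. For PCNA it was 0.67, 0.83 and 1.03, and for CDC45 0.83, 0.96 and 1.08. CLSPN had nearly the same ratio in each group, at 1.04, 1.04 and 1.05. POLE2 stood lower in each, by log2 ratios of -1.199, -0.96 and -0.79. For FEN1 the ratio was 0.39, 0.54 and 0.75. For SLBP, PCNA, FEN1 and POLE2 the intervals of the lowest and highest group stood apart. This was not particular to them, since the ratio was higher in the highest group than in the lowest for 39 of the 41 genes, with intervals apart for 26. Genes outside the list were not grouped in this way. The direction turned, with both intervals off 0, for 5 genes, which were CDT1 (-0.79 and 0.30), GINS2 (-0.72 and 0.22), TYMS (-0.19 and 0.33), MCM6 (-0.27 and 0.16) and GINS1 (-0.17 and 0.19). These groups rest on genes that themselves differ between the libraries. The highest group also had no upper limit. Cells with 30 or more UMIs of the list made up 0.110% of RWPE1 and 2.11% of RWPE-ERG-mAKT cells. Totals within that group were therefore not equal, and the part of this in the higher ratios and turned directions was not tested.

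Cells were also ordered by RNA of 40 mitosis genes, such as TOP2A, CCNB1 and CDC20, which peak in G2 and M. Over cells, the sum of the list and that of the mitosis genes correlated at r = -0.15 in RWPE1 (n = 9967) and -0.12 in RWPE-ERG-mAKT (n = 14134). The mean number of UMIs of the list was highest at intermediate mitosis RNA in both libraries. In RWPE1 it was 9.27, 11.2, 12.1, 8.67 and 6.76 in cells with 0 to 3, 4 to 9, 10 to 29, 30 to 59 and 60 or more mitosis UMIs. In RWPE-ERG-mAKT it was 9.34, 12.5, 15.3, 10.8 and 7.26. The libraries were thus close at both ends and furthest apart between them, and cells with 20 or more UMIs of the list made up 9.07% and 26.0% of the group with 10 to 29 mitosis UMIs. That group held 34.3% of RWPE1 and 38.1% of RWPE-ERG-mAKT cells, and the group with 60 or more held 8.99% and 11.2%.

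Genes of the list differed in this order. From cells with 0 to 3 to cells with 60 or more mitosis UMIs, 21 genes were lower in both libraries, with intervals below 0. Another 4 were higher in both and 16 were neither. Genes outside the list were not counted in this way, so whether these numbers are particular to the list was not tested. In the order of RWPE1, the deepest drops were those of E2F1, with log2 ratios of -3.65 in RWPE1 and -2.58 in RWPE-ERG-mAKT, MCM6 with -3.23 and -2.14, and UNG with -2.88 and -1.71. CCNE2 and MCM5 followed, at -2.39 and -1.65 and at -2.25 and -1.93. In RWPE-ERG-mAKT, MCM5 and GINS2 (-1.61 and -1.78) were below UNG and CCNE2. These are genes of the G1 to S step, of licensing and of helicase activation (GINS2), together with a repair enzyme. The 4 genes that were higher in mitosis-rich cells were RRM2 (2.41 and 2.43), ORC6 (0.64 and 1.08), RFC3 (0.53 and 0.80) and RRM1 (0.45 and 0.48). RRM2 ran from 124 to 658 UMIs per 1000 cells in RWPE1 and from 122 to 660 in RWPE-ERG-mAKT, so its ends were alike and its level differed at 10 to 29 mitosis UMIs, where it was 721 and 1038. SLBP was higher in RWPE-ERG-mAKT in all 5 groups, with 344 and 665 UMIs per 1000 cells in the lowest and 171 and 410 in the highest. E2F1 was lower in RWPE-ERG-mAKT at 0 to 3 (168 and 90.4) and at 4 to 9 mitosis UMIs (231 and 138).

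**Figure D4:**
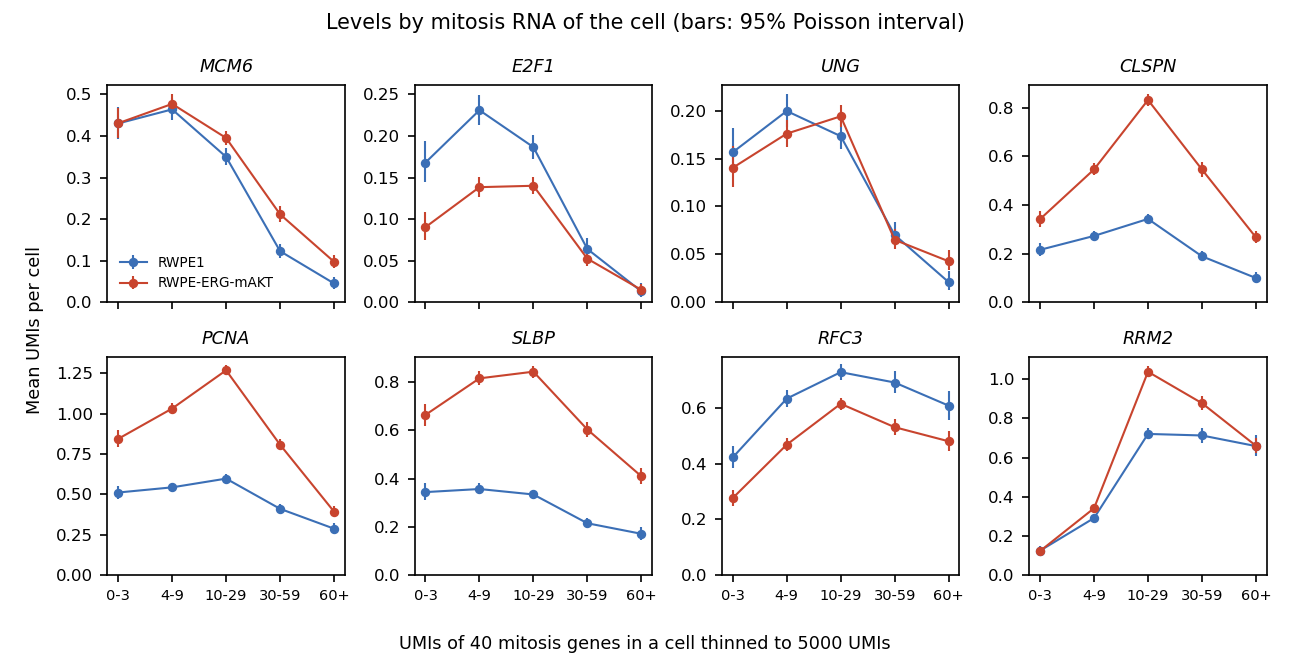
Mean UMIs per cell at 5000 UMIs are plotted for 8 genes of the list against the UMIs of 40 mitosis genes in the cell, for RWPE1 and RWPE-ERG-mAKT, with 95% Poisson intervals. MCM6, E2F1 and UNG end near 0 in mitosis-rich cells, RRM2 and RFC3 stay above their starting level, and SLBP, PCNA and CLSPN lie higher in RWPE-ERG-mAKT in every group.

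Coexpression was weak in RWPE1 and stronger in RWPE-ERG-mAKT. Each gene was correlated over cells with the sum of the other 40 at 5000 UMIs, as Pearson's r on log(1 + UMIs). The median r was 0.11 in RWPE1 (range 0.01 to 0.23) and 0.19 in RWPE-ERG-mAKT (range 0.06 to 0.36), and r was higher in RWPE-ERG-mAKT for 40 of 41 genes, POLD1 being the exception (0.08 and 0.07). It exceeded 0.1 for 23 and 35 genes. Among 8098 genes at 0.05 UMIs per cell or more, the median r with the sum of the list was 0.005 and 0.007, and 0.877% and 2.198% exceeded 0.1. Of the 19 genes with a lower share of positive cells in RWPE-ERG-mAKT, 18 had the higher r there. The sum of the list was itself larger and more spread over cells in RWPE-ERG-mAKT, so this does not separate coexpression from abundance. The part of that sum in the r values was not tested. CLSPN (0.23 and 0.35), MCM3 (0.21 and 0.25) and PCNA (0.19 and 0.36) followed the rest of the list most closely in RWPE1. SLBP went from 0.08 to 0.23 and CDT1 from 0.08 to 0.21. GINS3, RPA1 and GINS4 followed it least in RWPE1, at 0.01, 0.04 and 0.04. At these low counts per cell a weak r is no finding by itself. The 40 mitosis genes, measured in the same way, had median r of 0.43 and 0.47.

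Among the 820 pairs of genes the median r was 0.02 (RWPE1) and 0.05 (RWPE-ERG-mAKT), 728 pairs were higher in RWPE-ERG-mAKT, and the values of the pairs correlated between the libraries at r = 0.70. PCNA and CLSPN made the strongest pair in RWPE1, at 0.12, and reached 0.21 in RWPE-ERG-mAKT. TYMS and RRM2 (0.11 and 0.16), MCM3 and MCM6 (0.10 and 0.13) and RRM1 and RRM2 (0.10 and 0.13) came next in RWPE1. RRM2 and CLSPN were at 0.10 and 0.21, and MCM6 and RRM2, which peak in different groups of mitosis RNA, were at -0.04 and 0.04. Subunits of one complex were therefore not always the closest pairs.

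**Figure D5:**
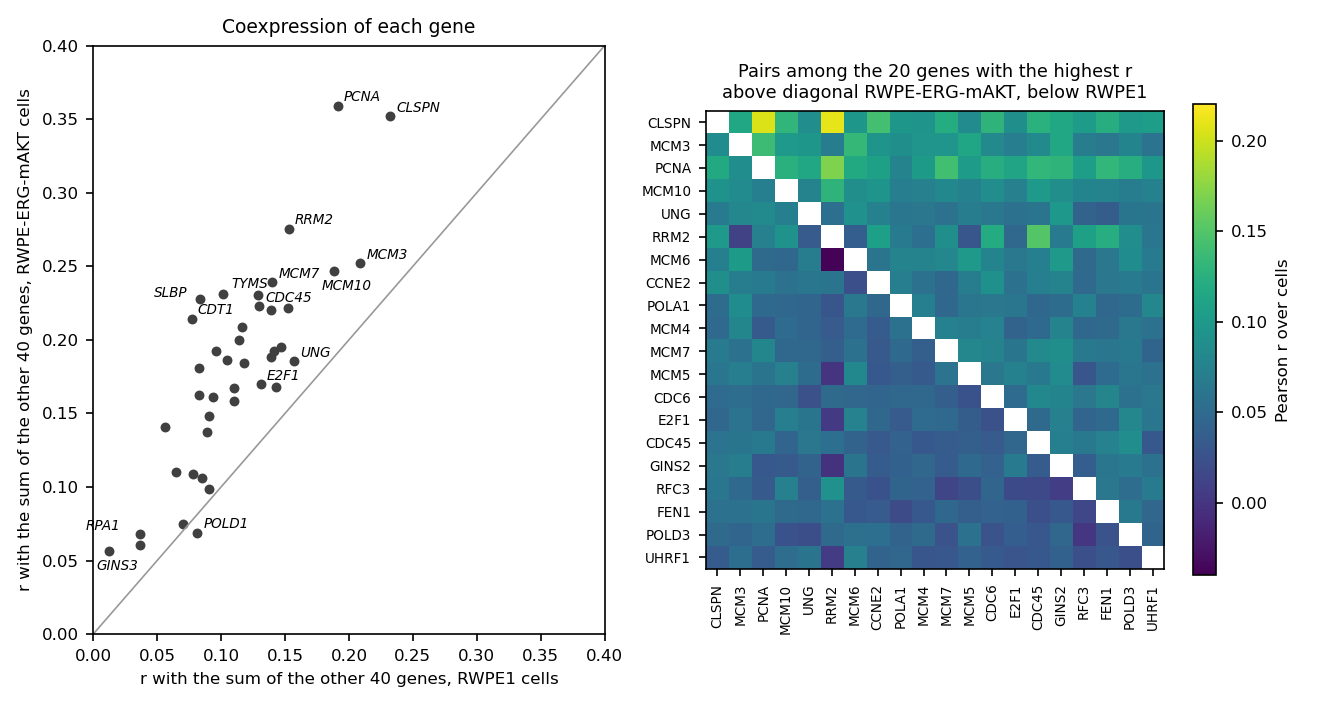
On the left, each gene's Pearson r over cells with the sum of the other 40 genes in RWPE-ERG-mAKT is plotted against that in RWPE1, with a line of equality, and 40 of 41 points lie above the line. On the right, the r of pairs among 20 genes is shown by colour, above the diagonal for RWPE-ERG-mAKT and below it for RWPE1, with CLSPN, PCNA and RRM2 forming the brightest cells.

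Outside the list, the genes most like it by the lower r of both libraries, among the 8098 genes, included ATAD2 (0.28 and 0.33), DUT (0.27 and 0.43), HELLS (0.23 and 0.28), BRCA1 (0.22 and 0.26), MIR924HG (0.25 and 0.21), CENPK (0.20 and 0.22), DIAPH3 (0.21 and 0.20), HIST1H4C (0.20 and 0.29) and WDR76 (0.20 and 0.26). DUT, which keeps uracil out of the nucleotide pool, stood at 292 and 474 CPM, and ATAD2, a chromatin ATPase, at 186 and 134 CPM. HELLS, a chromatin remodeller, stood at 141 and 93.9 CPM. Their likeness in cells thus went with levels that differed in both directions. The genes with the lowest r were CCNB1 (-0.32 and -0.35), UBE2S (-0.28 and -0.26), PTTG1 (-0.29 and -0.25), CDC20 (-0.23 and -0.26), CKS2 (-0.23 and -0.25) and CENPF (-0.23 and -0.23).

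A list of 70 other replication and S phase genes was compared in the same way. It had 14 genes (20%) more than 1.5-fold higher and 11 (15.7%) more than 1.5-fold lower in RWPE-ERG-mAKT, with a median log2 ratio of 0.05. Among the largest ratios upward were those of ESCO2 at 13.6 and 36.5 CPM, the acetyltransferase that makes sister chromatids cohere, and POLE4 at 71.3 and 141 CPM, a small subunit of polymerase epsilon. CDC25A, the phosphatase that activates CDK2, stood at 5.51 and 10.7 CPM. Downward were RECQL4 at 9.50 and 4.31 CPM, DSCC1 at 19.3 and 9.58 CPM, E2F3 at 59.1 and 32.9 CPM, DNA2 at 25.8 and 14.6 CPM and MCM9 at 23.7 and 13.9 CPM. RECQL4 takes part in origin firing, DSCC1 belongs to an alternative clamp loader, and DNA2 is a nuclease of Okazaki flaps. POLE3, the other small subunit of that enzyme, stood at 117 and 206 CPM, so POLE3 and POLE4 were higher and POLE and POLE2 lower. In cells, 62 of these genes had a median r with the list of 0.08 and 0.14. Of the 40 mitosis genes, 5 (12.5%) were more than 1.5-fold higher and 3 (7.5%) lower, with a median log2 ratio of 0.07.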

How the data were processed

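The deposited tables hold raw UMI counts per gene and barcode, 1 table per library, which the authors made without normalization. The submitters' processing notes name Cell Ranger 7.1.0 and hg38. The use of intronic reads and the annotation version are not given in the sources used here. Of the 36601 gene identifiers, 34616 (94.6%) were placed with GENCODE release 29 on GRCh38, and promoters are from RefSeq (GRCh38.p14).

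Cells with over 2500 genes and under 7.5% MT- UMIs were kept, a choice that differs from the limits of 200 to 2500 genes in the study's methods, which would leave too few UMIs per cell. No doublet caller was used, and a setting without the 5% of barcodes with the most UMIs was tried instead. Levels are CPM of summed counts with exact Poisson intervals, ratios carry conditional Poisson intervals, and shares carry Clopper-Pearson intervals, all at 95%. A gene counted as measured from 100 UMIs on, added over both libraries. Thinning was without replacement (seed 1). With 1 library per group no test between conditions was made. The computations were tested on simulated data. Scripts ran in Python 3.11.15 with matplotlib 3.10.9, pandas 2.3.3, scipy 1.17.1 and numpy 2.4.6.

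All 41 genes are named, with up to 5 of the 70 other replication genes each way past 1.5-fold, and the 10 genes most like the list and 6 least like it. A few genes that this rule names are not reported here. The genes, the lists and most alternatives were chosen with earlier results of these data known. Labels gave no replicate numbers.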

Additional observations from a re-analysis of the deposited data

How the results depend on the processing

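The median log2 ratio of the 41 genes (0.15) lay between 0.11 and 0.18 in 10 of 12 other settings. Some of these could hardly change it. Every gene of the list has over 1000 UMIs, so a minimum of 1000 UMIs or none left the value as it was. Leaving out barcodes with microglia or choroid plexus markers took 5 kept RWPE1 cells away. The median was -0.034 in cells with 7.5% or more MT- UMIs, of which RWPE-ERG-mAKT had 107, and 0.30 under median-of-ratios scaling, which moves all genes alike. The count past 1.5-fold upward (8) was 13 in cells with 200 to 2500 genes, where 40 genes were measured, and 7 to 10 otherwise. The count downward (5) was 3 in those cells, 1 under median-of-ratios scaling, 2 with the mean of each cell's CPM and 4 to 6 otherwise. In single genes, 21 of 41 turned in at least 1 setting, CDT1, GINS3 and RFC5 only under median-of-ratios scaling. E2F1 turned to 0.12 in cells with 200 to 2500 genes (interval -0.56 to 0.87), and POLA1 to 0.26 in cells with 7.5% or more MT- UMIs (-0.03 to 0.53). Apart from that scaling, turned values with intervals off 0 were, in those cells, RFC3 at 0.34 (0.12 to 0.56), RRM2 at -0.47 (-0.79 to -0.16) and MCM2 at -0.61 (-1.27 to -0.009), and POLD1 at 1.13 (0.06 to 2.47) with 200 to 2500 genes. In cells with 7.5% or more MT- UMIs the median log2 ratio of shares was -0.12 (0.11 in the report's cells), the log2 ratio of UMIs of the list per cell was 0.027 (0.25), cells with 20 or more UMIs of the list made up 5.16% and 3.96%, and the median correlation in 101 RWPE-ERG-mAKT cells was 0.12. GINS3 had no ratio of shares there. The share of cells with 20 or more was 0.130% and 1.499% at 3000 UMIs per cell and 32.7% and 43.6% at 8000. The ratio per cell was 0.23 with all cells of 200 or more genes. The median correlation grew with depth, from 0.082 to 0.16 in RWPE1 and from 0.13 to 0.24 in RWPE-ERG-mAKT between 3000 and 8000 UMIs per cell, with 41 and 38 of 41 genes higher in RWPE-ERG-mAKT at these depths and 17 in the cells rich in MT- UMIs. It was 0.14 in RWPE-ERG-mAKT cells with fewer than 4 mitosis UMIs. An E2F-type word lay in 31.4% of the promoters within 100 bases before the start. Where settings differ, the cause was not tested. The groups by mitosis RNA and the setting without barcodes of microglia or choroid plexus markers were chosen after seeing the data, since 61.1% and 65.98% of cells fell into the last of the groups first set. Depth limits the shares of genes near 3% of cells and every single correlation.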
